A study of Mus musculus with 6 samples.

Results

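The Myc and Max network is a set of 10 transcription factor genes, Myc, Mycn, Mycl, Max, Mlx, Mnt, Mxi1, Mxd1, Mxd3 and Mxd4, taken by gene symbol from the 30315 genes listed for 6 RNA-Seq libraries. All 6 libraries came from primary renal tubular epithelial cells (TECs) of C57BL/6 mice, isolated from kidney and grown to about 50% confluence. Cells of 3 libraries received siSox9, a small interfering RNA (siRNA) against Sox9, and cells of the other 3 received the control siRNA siCon, called siNC in the labels. Both groups were transfected 12 h before hypoxia/reoxygenation (H/R), which was 6 h at 1% oxygen in glucose-free medium and then 18 h of reoxygenation in complete medium, so no library is free of H/R. The labels name 1 siRNA against Sox9, and its effects on Sox9 and on other transcripts cannot be told apart. The study read Myc as an output of Wnt/β-catenin signaling. It measured Myc and cyclin D1 in a kidney cell line, TCMK1, with Sox9 overexpression and the pathway inhibitor ICG001. From siSox9 RNA-Seq of primary TECs it reported enrichment and mostly lower levels of Wnt genes. The comparison below asks how the transcripts of Myc and its partners stood after Sox9 knockdown.

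The proteins of this network share a basic helix-loop-helix leucine zipper and bind DNA as pairs at the E-box. MYC, MYCN and MYCL pair with MAX and activate genes of ribosome assembly, metabolism and cell growth. MNT, MXI1 and the MXD proteins pair with the same MAX and recruit the SIN3 histone deacetylase complex to repress such genes, so both arms draw on a common partner. MLX is a MAX-like protein that pairs with some of the repressors and with MLXIP and MLXIPL, the sensors of carbohydrate supply. In kidney, Mycn is known for its role in the growing ureteric bud and nephron progenitors, and Myc for its rise in injured and regrowing tubule.

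The E-box CACGTG is a site bound by pairs with MAX, and 4 members carry it in their own promoter window. Binding was not measured in these libraries. The window searched was the RefSeq promoter on GRCm38.p6, from 250 bases before to 50 bases after a gene's RefSeq start. Distances below are to this start, which can differ from the gene bounds given later, as it does for Max. CACGTG reads the same on both strands. The promoter table held 9 of the 10 members and none for Myc. Of these 9, Max, Mlx, Mnt and Mxd4 held 1 E-box each, and Mycn, Mycl, Mxi1, Mxd1 and Mxd3 held none. Among all 27025 genes of the promoter table, 8.09% held it in at least 1 window, and among the genes tested below 12.1% did. The 30 bases around each site are shown with the E-box in capitals, 5′ to 3′ on the strand of the gene.

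Max, chr12:76962234-76962263, - strand, E-box starting 3 bases before the start: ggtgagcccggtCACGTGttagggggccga
Mlx, chr11:101087238-101087267, + strand, E-box starting 40 bases before the start: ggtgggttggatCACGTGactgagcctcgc
Mnt, chr11:74830789-74830818, + strand, E-box starting 123 bases before the start: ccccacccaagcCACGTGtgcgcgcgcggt
Mxd4, chr5:34187912-34187941, - strand, E-box starting 219 bases before the start: gggctgggccacCACGTGctgttgctaagc

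Of these 4 genes, Max fell with siSox9 in the test below and the other 3 did not pass, and both other members that fell, Mycn and Mxi1, were without the site in their windows. The letters AACAAT, the core of the motif that SOX proteins bind, were searched on both strands and stood in the windows of Mycl and Mxd4, against 12.2% of all genes in the promoter table and 6.84% of the genes tested below. Neither of these passed the test below.

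Levels are given as the deposited FPKM, fragments scaled to exon length and to library size, a unit per length in which genes can be compared with each other. The values implied library totals from 23893198 to 25725742 reads, at which 3 reads on 1 kb of exons are 0.117 to 0.126 FPKM. Libraries of a group differed by a mean chi-square per gene of 1.90 to 6.91, where sampling noise alone gives about 1, so none was a copy of another, and the pairs that include siCon replicate 1 gave the largest values within a group. Sox9, the target, had 8.93, 8.61 and 9.07 FPKM after siSox9 and 25.7, 26.5 and 25.6 FPKM after siCon, so 34.2% was left. Epithelial markers were high in both groups, with 9 of 9 tested and a summed level of 4100 to 4250 FPKM after siSox9 and 3940 to 4150 FPKM after siCon, whereas the markers of differentiated proximal tubule summed to 2.68 to 3.33 FPKM over all 6 libraries, and Slc34a1 lay at 0 to 0.00895 FPKM. Markers of other cell types were also present, with summed levels of 88.8 to 107 FPKM for leukocytes, 6.45 to 9.09 FPKM for fibroblasts and 2.91 to 4.12 FPKM for endothelium. Smooth muscle genes summed to 680 to 733 FPKM after siSox9 and 762 to 804 FPKM after siCon. Most of this was Acta2, at 652 to 741 FPKM in the 6 libraries, while Myh11, Tagln and Des lay at 0.322 to 2.27 FPKM. Cnn1 had 23.9 to 25.0 FPKM after siSox9 and 57.2 to 59.6 FPKM after siCon. It was the 1 smooth muscle gene of 4 tested that passed as lower in the test below. Podocyte genes summed to 12.0 to 13.2 and 18.1 to 18.6 FPKM, and injury markers to 1030 to 1060 and 761 to 843 FPKM. The podocyte gene Nphs1 was listed at 0 in all 6 libraries. The part of these marker genes in the results below was not tested. In such bulk samples, fewer cells of a type and less RNA per cell cannot be told apart.

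After Sox9 knockdown, Max, the common partner of the network, and Mycn and Mxi1 fell, and no member passed as higher. Max and Mycn passed in each of 15 alternatives, but Mxi1 in only 6 of 14. Myc itself, the most abundant member, had a mean 6.08% above the control level and did not pass. Limma on log2(FPKM + 1), over the 12009 genes whose mean reached 1 FPKM and with Benjamini-Hochberg adjusted p under 0.05, tested 9 of the 10 members, and Mxd3 lay below the minimum. Of these 9, 3 were lower, 0 were higher and 6 did not pass. The 3 are 33.3% of the members tested, beside 17.6% lower, 12.8% higher and 30.4% in either direction over all genes tested. With values centred on each library's median, 52.6% of all calls were in the higher direction, against 42.0% without centring, and there the same 3 members passed as lower and Mlx as higher (adjusted p = 0.0357 from limma). For 5 of the 9, siSox9 and siCon libraries lay fully apart, with siSox9 below for 3 and above for 2, beside 46.3% of all genes tested in either direction, 26.1% below and 20.2% above. The median log2 fold change was -0.03 for the 9 members and -0.01 for all genes tested.

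**Figure D1:**
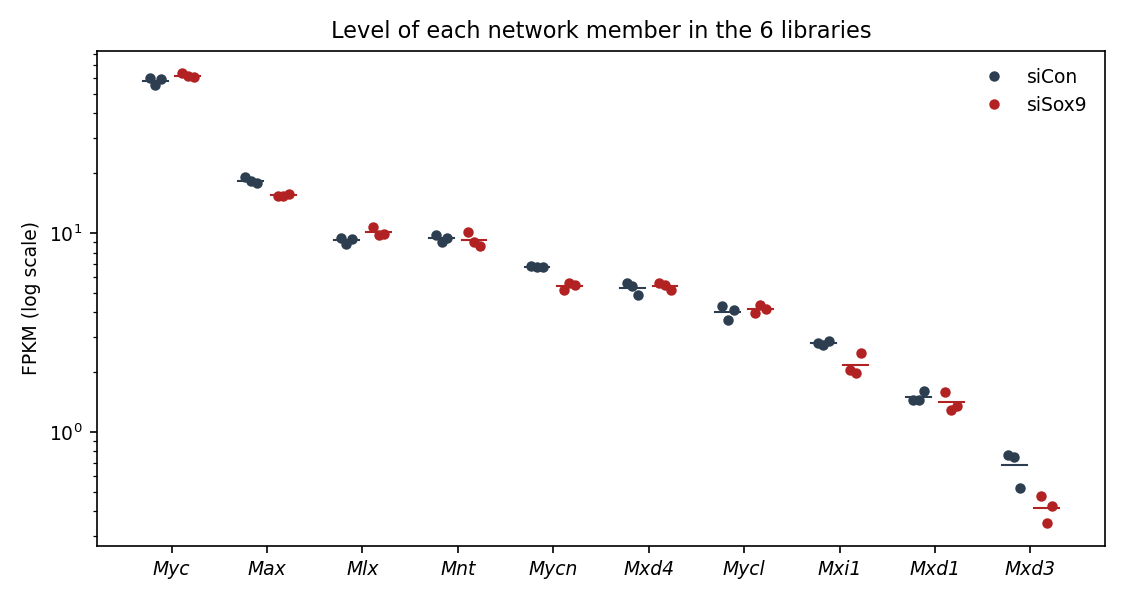
FPKM of the 10 members on a log axis, ordered by mean level, with 1 point per library and a bar at the mean of the 3 siCon (dark) or 3 siSox9 (red) libraries. Myc lies near 60 FPKM in all libraries, Max, Mycn, Mxi1 and Mxd3 lie lower in every siSox9 library than in any siCon library, and the members span from 0.349 to 63.7 FPKM.

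The levels followed an order that was nearly the same in both groups. Myc had a mean of 60.2 FPKM over the 6 libraries and lay above 93.6% of the genes tested, and Max followed with 17.0 FPKM, above 74.2%. Mlx (9.71 FPKM) and Mnt (9.33 FPKM) came next and overlapped between libraries in each group, so their order was not set. Mycn (6.12 FPKM) lay above Mxd4 (5.37 FPKM) in every siCon library, but the libraries of these genes overlapped with siSox9. Mycl (4.09 FPKM), Mxi1 (2.49 FPKM), Mxd1 (1.46 FPKM) and Mxd3 (0.549 FPKM) closed the order, with no overlap between neighbours in either group.

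Among the activators, Myc (ENSMUSG00000022346, chromosome 15 from 61985391 to 61990374 in GRCm38) had 63.7, 61.5 and 60.9 FPKM after siSox9 and 60.2, 55.8 and 59.4 FPKM after siCon. The siSox9 libraries lay just above the siCon libraries without overlap, a separation in the higher direction that 20.2% of all genes tested showed. The means were 62.0 ± 1.51 and 58.5 ± 2.36 FPKM (SD, n = 3 each), and the log2 fold change was 0.08 with a 95% confidence interval from -0.01 to 0.17 (adjusted p = 0.139 from limma). These values rested on 3952 to 4455 reads after siSox9 and 3661 to 4064 after siCon. Of 15 alternatives, Myc passed in 1, limma voom on the recovered reads of all genes (log2 fold change 0.11, adjusted p = 0.0486).

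Mycn (ENSMUSG00000037169, chromosome 12 from 12936093 to 12941914) is the family member best known from developing tissues. It had 5.18, 5.64 and 5.47 FPKM after siSox9 and 6.86, 6.79 and 6.75 FPKM after siCon. Every siSox9 library lay below every siCon library, and the siCon libraries lay close together. The mean fell by 20.1%, with a log2 fold change of -0.28 (standard error 0.04, adjusted p = 0.00257 from limma). It rested on 431 to 472 reads against 540 to 561, and it passed in each of the 15 alternatives, with adjusted p from 0.00146 to 0.0162.

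Mycl (ENSMUSG00000028654, chromosome 4 from 122995652 to 123002485), the third activator, had 3.98, 4.34 and 4.17 FPKM after siSox9 and 4.30, 3.68 and 4.10 FPKM after siCon. Its groups overlapped. The log2 fold change was 0.04, with a 95% confidence interval from -0.10 to 0.18 (adjusted p = 0.643 from limma).

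In FPKM summed over the 3 activators, Myc made up 87.4%, 86.0% and 86.3% after siSox9 and 84.4%, 84.2% and 84.6% after siCon. The share of Mycn was 7.11% to 7.90% after siSox9 and 9.60% to 10.2% after siCon. The summed level itself was 71.6 ± 1.2 FPKM after siSox9 and 69.3 ± 2.69 FPKM after siCon (SD, n = 3 each), and its groups overlapped. The shares did not overlap between groups, for Myc or for Mycn.

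Max (ENSMUSG00000059436, chromosome 12 from 76937269 to 76962201, - strand), the partner on which MYC and MXD proteins depend for DNA binding, had 15.4, 15.3 and 15.7 FPKM after siSox9 and 19.1, 18.3 and 17.9 FPKM after siCon. All siSox9 libraries were below all siCon libraries, and the gap of the groups was wider than the range within either. The mean fell by 16.1%, with a log2 fold change of -0.24 (standard error 0.03, 95% confidence interval from -0.32 to -0.16, adjusted p = 0.00257 from limma). The reads were 1423, 1401 and 1350 after siSox9 and 1704, 1592 and 1600 after siCon. Max passed in each of the 15 alternatives, with log2 fold changes from -0.26 to -0.21 and adjusted p up to 0.0356.

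Mlx (ENSMUSG00000017801, chromosome 11 from 101087277 to 101092207), the Max-like partner, lay on the other side of the control from Max. It had 10.8, 9.83 and 9.95 FPKM after siSox9 and 9.45, 8.80 and 9.40 FPKM after siCon, so that the siSox9 libraries lay above without overlap. Its log2 fold change of 0.13 (95% confidence interval from 0.02 to 0.24 before adjustment) did not pass after adjustment (adjusted p = 0.0755 from limma), and it did pass with median-centred (adjusted p = 0.0357) or quantile-normalized values (adjusted p = 0.0381). Of the exon bases of Mlx, 19.3% overlap those of Psmc3ip on the opposite strand, and whether the counting used strand is not given in the sources used here.

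**Figure D2:**
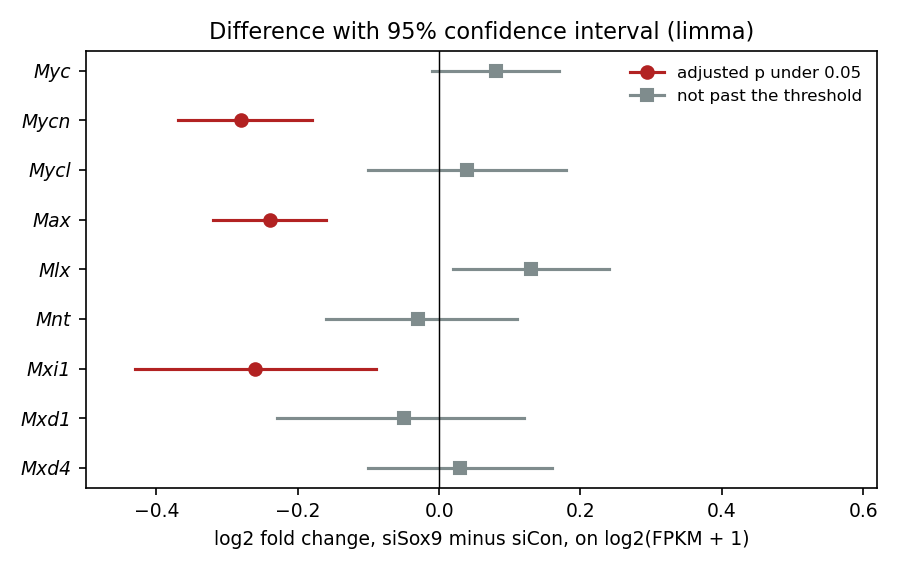
Log2 fold change of the 9 members tested, siSox9 minus siCon, on the log2(FPKM + 1) scale, with bars for limma's 95% confidence interval. Mycn, Max and Mxi1 (red circles) lie between -0.28 and -0.24, and the other 6 (grey squares) lie between -0.05 and 0.13.

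Among the repressors, Mnt (ENSMUSG00000000282, chromosome 11 from 74830920 to 74845725), which is expressed widely and in dividing as well as resting cells, had 10.1, 9.01 and 8.65 FPKM after siSox9 and 9.81, 9.05 and 9.42 FPKM after siCon. The groups overlapped, and the log2 fold change was -0.03 with a 95% confidence interval from -0.16 to 0.11 (adjusted p = 0.751 from limma). Its reads numbered 956 to 1197 per library.

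Mxi1 (ENSMUSG00000025025, chromosome 19 from 53310506 to 53375810), a repressor that is also a target of hypoxia-inducible factor, had 2.05, 1.99 and 2.50 FPKM after siSox9 and 2.81, 2.73 and 2.86 FPKM after siCon. The siSox9 libraries were all below the siCon libraries, but siSox9 replicate 3 stood closer to siCon than to the other siSox9 libraries. The mean fell by 22.1%, with a log2 fold change of -0.26 (standard error 0.07, adjusted p = 0.030 from limma). This call was the least stable of the 3: it passed without siSox9 replicate 3 (-0.33, adjusted p = 0.0101) and was lost without siSox9 replicate 1 (adjusted p = 0.0912), siSox9 replicate 2 (adjusted p = 0.0952), siCon replicate 1 (adjusted p = 0.0613), siCon replicate 2 (adjusted p = 0.0634) or siCon replicate 3 (adjusted p = 0.0882), with TPM (adjusted p = 0.0566), with quantile normalization (adjusted p = 0.0775) and with no filter (adjusted p = 0.0959). The exon length in GENCODE M21 did not give whole reads for Mxi1, and the length of 5619 bases, the single nearby one that did, gave 297, 284 and 336 reads after siSox9 and 392, 371 and 400 after siCon.

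The Mxd genes, known for their rise as cells leave the cycle and differentiate, with Mxd3 as the exception that is expressed in dividing cells, spanned the lower part of the order, from Mxd4 down to Mxd3, the lowest member. Mxd4 (chromosome 5 from 34173883 to 34187720) had 5.65, 5.49 and 5.16 FPKM after siSox9 and 5.65, 5.40 and 4.89 FPKM after siCon, with a log2 fold change of 0.03 (95% confidence interval from -0.10 to 0.16, adjusted p = 0.736 from limma). Mxd1 (chromosome 6 from 86647042 to 86669161) had 1.59, 1.30 and 1.36 FPKM against 1.45, 1.45 and 1.62 FPKM, with a log2 fold change of -0.05 (95% confidence interval from -0.23 to 0.12, adjusted p = 0.607 from limma). In both genes the groups overlapped. An antisense gene covers 6.06% of the exon bases of Mxd4.

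Mxd3 (ENSMUSG00000021485, chromosome 13 from 55325168 to 55329823) had 0.476, 0.349 and 0.424 FPKM after siSox9 and 0.765, 0.752 and 0.527 FPKM after siCon. The siSox9 libraries lay below without overlap, on 29, 21 and 24 reads against 45, 43 and 31. The mean was 61.1% of the control level. On the reads of all genes, limma voom gave a log2 fold change of -0.67 with a 95% confidence interval from -1.24 to -0.09 (adjusted p = 0.134), so that a change was not detectable at this depth after adjustment. Of its exon bases, 4.43% overlap those of Prelid1 on the opposite strand, which had 100 to 104 FPKM in these libraries.

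The balance of the arms was followed as ratios of FPKM in each library, given as values without a test since the members were chosen with results known. The summed activators over Max were 4.74, 4.66 and 4.49 after siSox9 and 3.74, 3.62 and 3.92 after siCon, so that the ratio was higher in all siSox9 libraries. The summed repressors over Max were 1.29, 1.18 and 1.15 after siSox9 and 1.07, 1.06 and 1.08 after siCon. The summed activators over the summed repressors were 3.67, 3.94 and 3.90 after siSox9 and 3.49, 3.42 and 3.64 after siCon, so that siSox9 replicate 1 lay just above siCon replicate 3. Both ratios to Max were apart between groups, while the summed activators and the summed repressors each overlapped. Max is the denominator of both ratios and itself lay apart, so they are not a result separate from its fall.

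**Figure D3:**
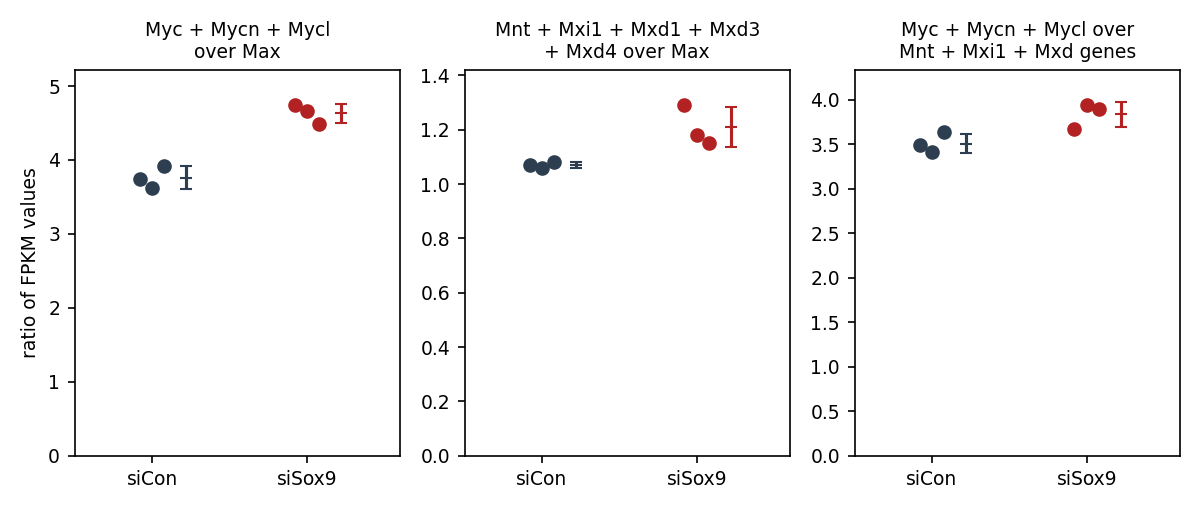
Ratio of summed FPKM values in each library for activators over Max, repressors over Max and activators over repressors, with points for libraries, and the mean and SD of 3 libraries beside them. The siSox9 libraries lie at 4.49 to 4.74 in the left panel, above the siCon libraries at 3.62 to 3.92.

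Of the other partners, Mlxip, which pairs with MLX, had 12.7, 12.2 and 11.3 FPKM after siSox9 and 11.2, 10.6 and 10.3 FPKM after siCon. It was higher by 0.16 on the log2 scale (adjusted p = 0.0466 from limma), a call lost in 6 of 15 alternatives, among them without siSox9 replicate 1 (adjusted p = 0.137), siSox9 replicate 2 (0.13), siCon replicate 2 (0.111) or siCon replicate 3 (0.137). For Mga, a large partner of MAX, the difference was 0.07 on the log2 scale (adjusted p = 0.179 from limma), and Mlxipl lay at 0.0983 to 0.189 FPKM, below the minimum.

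Of the 14 genes of the SIN3 complex, 1 rose and 1 fell, 7.14% each, beside 12.8% and 17.6% of all genes tested. Brms1, a subunit of the complex, had 39.0 FPKM after siSox9 and 33.8 FPKM after siCon (log2 fold change 0.20, adjusted p = 0.00632 from limma). Sin3b, a scaffold that binds the MXD proteins, had 13.5 and 15.2 FPKM (log2 fold change -0.16, adjusted p = 0.0223 from limma). The call of Sin3b was lost in 5 of 15 alternatives, among them without siSox9 replicate 1 (adjusted p = 0.0706), siSox9 replicate 2 (0.0805) or siCon replicate 2 (0.0643).

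Of 19 cofactors of MYC, 3 rose and 3 fell, with a median log2 fold change of -0.05. These are 15.8% each, beside 12.8% and 17.6% of all genes tested, so both shares are near the background. Kat2a, a histone acetyltransferase recruited by MYC, fell by 0.36 and Ruvbl2, an ATPase of chromatin complexes, fell by 0.16 on the log2 scale (adjusted p = 0.00188 and 0.0076 from limma). The call of Ruvbl2 was lost with TPM (adjusted p = 0.0931) and with limma voom on the recovered reads of all genes (0.0505). Ccnt1 and Cdk9, the subunits of the elongation kinase P-TEFb, were higher by 0.18 and 0.12, and Paf1, an elongation factor, by 0.14 (adjusted p = 0.0406, 0.0274 and 0.0156 from limma). These 3 calls were lost without siSox9 replicate 2 (adjusted p = 0.103, 0.104 and 0.0659) and without siCon replicate 3 (0.0842, 0.06 and 0.0507). Without siSox9 replicate 1 those of Ccnt1 and Cdk9 were lost (0.0772 and 0.0732), that of Ccnt1 also without siSox9 replicate 3 (0.108) and that of Cdk9 without siCon replicate 2 (0.0796).

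Of 11 tested regulators of MYC protein stability, 1 rose and 2 fell. That is 9.09% and 18.2% beside 12.8% and 17.6% of all genes tested, so both shares are near the background. Trpc4ap, a substrate receptor for MYC degradation, had 17.4 FPKM after siSox9 and 12.5 FPKM after siCon (log2 fold change 0.45, adjusted p = 0.000191 from limma). Aurka, a mitotic kinase that stabilizes MYCN, had 6.47, 7.09 and 6.93 FPKM against 11.1, 9.42 and 9.57 FPKM (log2 fold change -0.49, adjusted p = 0.00174 from limma). Skp2, an F-box protein of the cell cycle, had 1.76 and 2.50 FPKM (log2 fold change -0.34, adjusted p = 0.00455 from limma). RNA levels do not give the amount of MYC protein, which was not measured in these libraries.

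Of the listed genes that MYC activates, some were higher and some lower. Of 39 tested ribosome biogenesis genes, 6 rose and 1 fell, with a median log2 fold change of 0.05. That is 15.4% and 2.56%, beside 12.8% and 17.6% of all genes tested. The share higher is thus near the background, and the share lower is under it. Bysl and Bop1, both needed for assembly of ribosomal subunits, rose by 0.27 each (adjusted p = 0.00223 and 0.00109 from limma), and Mybbp1a, a nucleolar protein, rose by 0.20 (adjusted p = 0.00193). Bop1 had 44.7, 45.2 and 46.7 FPKM after siSox9 and 38.3, 36.8 and 37.8 FPKM after siCon, without overlap. Tcof1, a factor of ribosomal RNA transcription, was lower by 0.17 (adjusted p = 0.0293 from limma), and this call was lost in 6 of 15 alternatives, among them without siSox9 replicate 2 (0.0729), siSox9 replicate 3 (0.0832), siCon replicate 1 (0.0553) or siCon replicate 3 (0.0604). Of the 34 genes of this list with a promoter window, 23.5% held an E-box.

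Of 36 growth and metabolism targets, 8 rose and 6 fell, with a median of -0.01. These are 22.2% and 16.7%, beside 12.8% and 17.6% of all genes tested, so the share lower is near the background. The 8 became 3 without siSox9 replicate 2, 2 without siSox9 replicate 3, 5 without siSox9 replicate 1 and 4 without siCon replicate 3, and the 6 became 2 without siSox9 replicate 2 or siCon replicate 2 and 3 without siSox9 replicate 1, siSox9 replicate 3 or siCon replicate 3. Shmt2, the mitochondrial enzyme that makes one-carbon units from serine, had 23.1, 24.0 and 23.7 FPKM after siSox9 and 41.8, 40.5 and 37.8 FPKM after siCon, and fell by 0.74 on the log2 scale (adjusted p = 8.85e-05 from limma). Cdk4, the G1 kinase, fell by 0.22 (adjusted p = 0.00104), and Bcat1, a transaminase of branched-chain amino acids, was lower by 0.31 (log2 fold change -0.31, adjusted p = 0.0325 from limma). Hexokinase Hk2 and the telomerase gene Tert rose by 0.23 and 0.26, and enolase Eno1 was higher by 0.17 (adjusted p = 0.0108, 0.0116 and 0.0230 from limma). Eno1 lost its call without siSox9 replicate 2 (adjusted p = 0.0615), siSox9 replicate 3 (0.0532) or siCon replicate 3 (0.0621), and Bcat1 without siSox9 replicate 1 (0.0969), siSox9 replicate 2 (0.0594), siSox9 replicate 3 (0.0775) or siCon replicate 2 (0.0746). Of the 31 genes with a promoter window, 35.5% held an E-box.

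Of 7 tested genes that MYC is known to lower, 5 rose and 1 fell, with a median of 0.29. These are 71.4% and 14.3%, beside 12.8% and 17.6% of all genes tested. With limma voom 1 was higher, as whole reads were not recovered for Cdkn1a, Cdkn2b, Ndrg1 and Ndrg2, which were thus not in that fit. The inhibitors of cyclin-dependent kinases Cdkn1a and Cdkn2b, both repressed by MYC through MIZ1, had 294 and 51.9 FPKM after siSox9 and 230 and 40.3 FPKM after siCon. Each was higher by 0.36 (adjusted p = 0.000192 and 0.00127 from limma). Ndrg2, another gene of this list, rose by 0.50 (adjusted p = 0.000374). Cdkn1b, another inhibitor of this family, moved the opposite way, from 9.51 FPKM after siCon to 6.68 FPKM with siSox9 (log2 fold change -0.45, adjusted p = 0.000748 from limma).

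Of 8 tested targets of MLX with MLXIP or MLXIPL, 5 rose and 0 fell, with a median of 0.18. The 5 are 62.5%, beside 12.8% higher and 17.6% lower over all genes tested. Txnip, an inhibitor of glucose uptake and the best known target of MLXIP, had 49.1, 52.1 and 49.2 FPKM after siSox9 and 41.3, 40.1 and 40.2 FPKM after siCon (log2 fold change 0.30, adjusted p = 0.000927 from limma). Acly, which makes acetyl-CoA from citrate, rose by 0.20 (adjusted p = 0.00353), and Tkfc, a kinase of fructose metabolism, was higher by 0.22 (adjusted p = 0.0413 from limma). The call of Tkfc was lost in 6 of 13 alternatives, among them without siSox9 replicate 1 (adjusted p = 0.103), siSox9 replicate 2 (0.127), siCon replicate 1 (0.0903) or siCon replicate 2 (0.103).

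**Figure D4:**
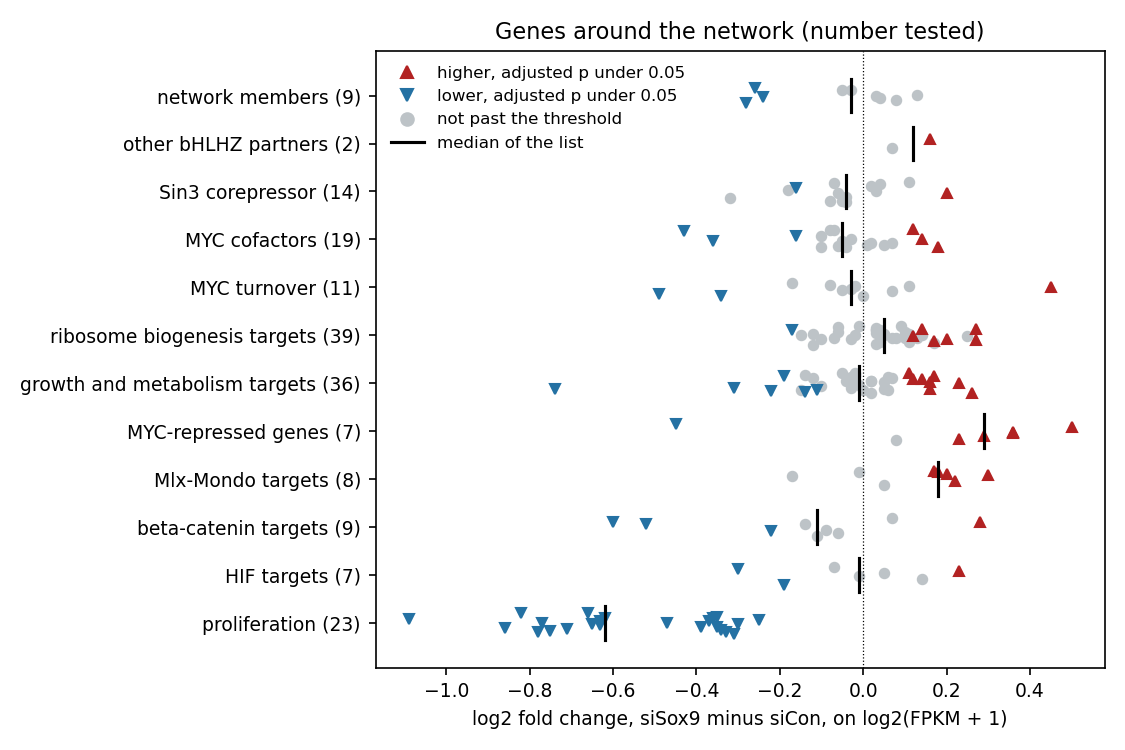
Log2 fold change of each gene tested in the lists around the network, siSox9 minus siCon, on the log2(FPKM + 1) scale, with triangles for genes past the threshold and a bar at the median of each list. All 23 proliferation genes lie below 0 with a median of -0.62, the ribosome biogenesis genes centre on 0.05, and the network members on -0.03.

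Of 9 tested β-catenin targets other than Myc, 1 rose and 3 fell, with a median of -0.11. These are 11.1% and 33.3%, beside 12.8% and 17.6% of all genes tested. Ccnd1 encodes cyclin D1, which opens the cell cycle in G1. It had 187, 181 and 178 FPKM after siSox9 and 192, 193 and 197 FPKM after siCon. Its libraries did not overlap, but the log2 fold change of -0.09 did not pass (adjusted p = 0.0613 from limma). With limma voom on the recovered reads of all genes Ccnd1 passed as lower (adjusted p = 0.00935), as did Axin2, a feedback inhibitor of the pathway that lay below the minimum (log2 fold change -0.55, adjusted p = 0.0147) and is named after its value was seen, and 4 targets were lower in that fit. Birc5, an inhibitor of apoptosis that peaks in mitosis, fell by 0.60, and Tcf7, a partner of β-catenin, fell by 0.52 (adjusted p = 0.000433 and 0.0096 from limma). Fosl1, an AP-1 factor, was lower by 0.22 (adjusted p = 0.0307), a call lost in 7 of 13 alternatives, among them without siSox9 replicate 1 (0.0624), siSox9 replicate 2 (0.0522), siSox9 replicate 3 (0.0847), siCon replicate 1 (0.0532) or siCon replicate 3 (0.0594), and Cd44, the hyaluronan receptor, rose by 0.28 (adjusted p = 0.00125). Birc5 is also a gene of dividing cells.

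Of 7 tested HIF targets other than Mxi1, 1 rose and 2 fell, with a median of -0.01. These are 14.3% and 28.6%, beside 12.8% and 17.6% of all genes tested. Pdk1, which limits entry of pyruvate into mitochondria, fell by 0.30, and P4ha1, a collagen prolyl hydroxylase, fell by 0.19 (adjusted p = 0.0104 and 0.00274 from limma). Ndrg1 rose by 0.23 (adjusted p = 0.00891), and it is also counted among the MYC-repressed genes that rose.

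Genes of dividing cells were lower with siSox9. All 23 proliferation genes tested passed as lower, which is 100% beside 17.6% of all genes tested. Their summed levels were 234 to 252 FPKM after siSox9 and 361 to 372 FPKM after siCon. Rrm2, a subunit of ribonucleotide reductase, fell by 1.09, Cdc20, an activator of the anaphase-promoting complex, by 0.86 and Plk1, a mitotic kinase, by 0.82 on the log2 scale (adjusted p = 6.03e-05, 0.000108 and 0.000209 from limma). The part of this difference in the values of Max, Mycn, Mxi1, Mxd3, Aurka, Skp2 and Birc5 was not tested. Myc and Mnt, the most abundant activator and repressor, did not pass in either direction.

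Across the 6 libraries, the genes whose log2(FPKM + 1) was most like that of Myc were Kansl1 (Pearson's r = 0.994), Ggta1 (r = 0.993) and Lrrc61 (r = 0.991), each with its lowest value in siCon replicate 2, as in Myc. For Max they were Fam57a (r = 0.998), Kif15 (r = 0.998) and Stk25 (r = 0.997). The points are the same 6 libraries in every case, and an r over 0.95 was reached by 82 genes for Myc and 720 for Max, so these are descriptions only.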

How the data were processed

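RNA of 6 libraries was sequenced on an Illumina NovaSeq. FPKM values were deposited for each gene in each library. The submitters' processing notes list HISAT2 2.1.0, Bowtie2 2.2.3, TopHat2 and the build mm9 without roles; the counter and annotation are not given in the sources used here. Of the 30246 genes in GENCODE M21, 93.3% have its GRCm38 position in the table, so coordinates are GRCm38. The column names give the replicate and siNC or another siRNA, which is siSox9 in the labels. Nothing says that libraries came from separate animals, so p-values measure the spread between libraries.

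The test was limma 3.58.1 (R 4.3.3, lmFit and eBayes with trend) on log2(FPKM + 1) over the genes whose mean reached 1 FPKM, without pairing, with Benjamini-Hochberg adjustment. This scale understates changes of low genes. Exact permutation of 3 against 3 libraries cannot give p under 0.1. Whole reads (within 0.02) were recovered for 27948 genes from exon lengths. The alternatives were TPM, quantile-normalized or median-centred values, a pseudocount of 0.1, a minimum of 5 FPKM, no filter, a replicate block, limma voom on the reads (TMM factors computed from their definition) and leaving out each library. The test was tried on simulated data with planted changes larger than those of the members tested. That trial does not show how well changes of their size are found. Named genes are the members, Sox9, Ccnd1, up to 3 largest rises and falls past the threshold per list, and the genes most like Myc and Max. The members and lists were chosen with earlier results of these data known. Promoters came from RefSeq, GRCm38.p6. Of the listed genes, Cip2a, Wdr74, Ca9, Slc22a6 and Lum were not analysed here. Of the MYC cofactors that passed, 1 is counted in its list but not reported here by name.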

Additional observations from a re-analysis of the deposited data

How the results depend on the processing

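Max and Mycn kept their direction and passed in each alternative, and Mxi1 passed in 6 of 14. The count of members lower was 3 and ranged from 2 to 3. The count of members higher was 0, and 1 with median-centred or quantile-normalized values (Mlx) and with voom on all recovered reads (Myc). Directions that turned were of members not past the threshold: Mycl was -0.01 without siCon replicate 2, Mxd4 -0.02 without siCon replicate 3, Mnt 0.01 without siSox9 replicate 3 and Mxd1 0.004 with quantile normalization. Over all genes, 3650 passed, 1532 higher and 2118 lower; leaving out a library gave 2424 to 3654 in all, with 944 to 1565 higher and 1480 to 2089 lower. The lowest totals, 2424 and 944 higher, came without siSox9 replicate 2. Lower genes numbered 1342 with TPM and 1376 with a minimum of 5 FPKM, which tests fewer genes; for TPM the cause was not tested. With median-centred values 52.6% of calls were higher, against 42.0%. The median of all genes moved by under 0.1 in each alternative. Same-numbered libraries did not deviate together (r = 0.0649, -0.0504 and 0.00784), so the replicate number only names a library; the replicate block left 3262 genes, and the 3 members lower still passed. Of the 39 genes named from the lists, 28 kept their call in every alternative. Leaving out a library moved Mycl between -0.01 and 0.08, Mxd4 between -0.02 and 0.07 and Mnt between -0.08 and 0.01. Over all alternatives, ribosome biogenesis genes higher ranged from 4 to 12 and growth targets from 2 to 8 higher and 2 to 7 lower. Depth limits Mxd3, on 21 to 45 reads.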
